A study of Homo sapiens with 34 samples.

Results

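A group of 8 transcription factors of the endoderm was followed through cardiac differentiation of human ESCs, SOX17, FOXA1, FOXA2, FOXA3, HNF4A, HHEX, PROX1 and ONECUT1. They are 8 of the 23189 gene symbols in the count data, picked by name as a group of known regulators. Earlier results of these data were known when they were picked, so the choice was not blind to these samples. Each gene was read from the RefSeq transcript with the largest total count over all libraries. All 8 genes were detected, and all 8 passed the filter on low counts in every comparison but those between groups at day 2, where HNF4A did not pass.

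RNA was sequenced from H1 cells, an established human ESC line, that were driven toward cardiomyocytes and sampled at days 0, 2, 6 and 10. WT cells were H1 cells given either an empty vector or an shRNA to GFP, and the 3 other lines were made with an shRNA to NKX2-5, to ZEB2 or to ZNF503. All lines, WT included, were infected with a lentiviral vector and selected in puromycin, and all received the GSK3 inhibitor CHIR99021, then the WNT inhibitor IWP2, and insulin later. Each target was represented by a single shRNA, the best of several tested by PCR, so an effect of the target and an effect of that vector cannot be told apart. Each of the 15 groups held 2 libraries, at day 10 replicates 3 and 4 of WT and ZEB2 shRNA cells. The day 10 samples of the ZNF503 shRNA line were not analysed here. The study asked whether loss of each of these 3 regulators changes the path of the cells to the cardiac lineage. The endoderm factors belong to the program of another germ layer, but their RNA in whole cultures cannot show which cells held it.

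Definitive endoderm arises beside cardiac mesoderm from a common mesendoderm, and the SOX17 and FOXA proteins are the factors by which it is usually recognised. FOXA1, FOXA2 and FOXA3 are related forkhead proteins that open compact chromatin at liver and gut genes, and HNF4A is the nuclear receptor that drives much of the hepatocyte and visceral endoderm program. HHEX, PROX1 and ONECUT1 act in the foregut and the liver bud, but HHEX is also used in endothelium and early blood, and PROX1 in cardiac muscle and lymphatic endothelium. None of the 8 is therefore a marker of 1 cell type alone.

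On GRCh37 (hg19), the build of the counts, SOX17 lies on chromosome 8 from 55370495 to 55373452, FOXA1 on chromosome 14 from 38058757 to 38065264 and FOXA2 on chromosome 20 from 22561636 to 22566093. FOXA3 lies on chromosome 19 from 46367247 to 46377055 and ONECUT1 on chromosome 15 from 53047250 to 53083275. HHEX lies on chromosome 10 from 94449712 to 94455404 and PROX1 on chromosome 1 from 214156524 to 214214853. FOXA1, FOXA2 and ONECUT1 are on the minus strand, and the others are on the plus strand.

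The 30 libraries held between 9189943 and 90814577 counts over 1 transcript per gene, and those of day 10 were the shallowest. Where no read was counted, a level of up to 3 counts remains possible, or 0.033 to 0.326 CPM depending on the library, for counting error only. CPM stands for counts scaled to a common library size, after TMM normalization. At day 6 the targeted gene was lower in its own line than in WT cells. NKX2-5 was then at 0.993 and 0.761 CPM in NKX2-5 shRNA cells against 84.2 and 50.5 in WT cells. It was also low in ZNF503 shRNA cells, at 2.9 and 2.07 CPM, and was at 37.2 and 34.8 in ZEB2 shRNA cells. ZEB2 at day 6 was at 54.6 and 57.1 CPM in ZEB2 shRNA cells against 96.8 and 94.1 in WT cells, and at day 10 the difference did not pass 5% FDR (log2 fold change -1.02, adjusted p = 0.0793). ZEB2 at day 6 was lower still in NKX2-5 shRNA cells, at 20.5 CPM in both libraries, and in ZNF503 shRNA cells, at 10.9 and 12.7. ZNF503 at day 6 was at 0.611 and 0.648 CPM in ZNF503 shRNA cells against 8.71 and 9.33 in WT cells, and in NKX2-5 shRNA cells it was at 0.588 and 0.901. Earlier no target was shown to be lower in its own line. At day 2 ZNF503 was at a mean of 1.38 CPM in ZNF503 shRNA and 1.53 CPM in WT cells, with libraries that overlapped (-0.23 on the log2 scale, standard error 0.40, adjusted p = 0.714), ZEB2 in ZEB2 shRNA cells was at -0.63 (adjusted p = 0.185), and NKX2-5 was too low to test. Groups were compared by edgeR's quasi-likelihood test and Benjamini-Hochberg adjustment across the genes tested, to which every adjusted p here belongs. The words rose and fell are used at an adjusted p under 0.05 (5% FDR), and a gene is called where it also passed the fold threshold of the study. The FDR limit for a call was 10% with a 2-fold change at day 0 and 10% with a 4-fold change at day 2. For days 6 and 10 it was 1% with an 8-fold change. The libraries of a group are described as biological replicates, but nothing in the sources used here says that they came from separate cultures. A p therefore rests on the spread between libraries within groups, pooled over the groups that shared a fit, and this spread may be technical. In RNA from whole cultures, fewer cells of a type and less RNA per cell cannot be told apart.

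SOX17, an early determinant of definitive endoderm, appeared as a sharp peak at day 2. In WT cells it was at 0.587 and 0.209 CPM at day 0, 53.6 and 58.0 at day 2, 5.46 and 7.58 at day 6, and 0.825 and 0.430 at day 10. Between WT libraries it rose from day 0 to day 2 by 7.16 on the log2 scale (standard error 0.35, adjusted p = 3.63e-07) and fell by 3.10 from day 2 to day 6 (adjusted p = 6.15e-06). In NKX2-5 shRNA cells SOX17 was at 0 and 0.0358 CPM at day 0, 53.0 and 65.3 at day 2, 31.1 and 38.2 at day 6, and 2.10 and 5.06 at day 10. The libraries of day 2 overlapped those of WT cells, but the values at day 6 had not come down to those of WT cells. In ZEB2 shRNA cells SOX17 was at 1.45 and 1.18 CPM at day 0, 49.5 and 63.2 at day 2, 12.6 and 19.2 at day 6, and 5.65 and 5.29 at day 10. In ZNF503 shRNA cells it was at 0 and 0.0276 CPM at day 0, only 3.28 and 4.18 at day 2, and 57.3 and 45.7 at day 6. ZNF503 shRNA cells therefore had the lowest SOX17 of all lines at day 2 and the highest at day 6. Ordered by mean, the 4 highest groups were the 3 other lines at day 2 and ZNF503 shRNA cells at day 6, and each overlapped the next in that order.

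FOXA2, the forkhead factor that appears first in the endoderm, also came up at day 2. WT cells held 0.854 and 0.340 CPM of it at day 0, 53.6 and 58.4 at day 2, 9.01 and 23.6 at day 6, and 2.68 and 1.72 at day 10. The rise from day 0 to day 2 was 6.59 on the log2 scale (standard error 0.51, adjusted p = 7.01e-06), and the later values in WT cells were lower at each step. NKX2-5 shRNA cells held 0.231 and 0.0716 CPM at day 0, 73.4 and 77.8 at day 2, 87.9 and 85.4 at day 6, and 71.9 and 35.7 at day 10. FOXA2 did not come down in this line between days 2 and 6 (log2 change 0.18, standard error 0.32, adjusted p = 0.67). ZEB2 shRNA cells held 1.16 and 0.921 CPM at day 0, 35.5 and 38.0 at day 2, 23.7 and 22.7 at day 6, and 18.4 and 15.9 at day 10. ZNF503 shRNA cells held 0.0450 and 0.0276 CPM at day 0, 22.4 and 30.4 at day 2, and 96.1 and 93.5 at day 6. Here FOXA2 rose between days 2 and 6 by 1.83 on the log2 scale (standard error 0.16, adjusted p = 1.62e-07), over the interval in which it fell in WT cells.

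FOXA1, its relative that appears later, was low through day 2, at most 1.66 CPM, and was found in every line at day 6. In WT cells FOXA1 stood at 0.427 and 0.262 CPM at day 0, 0.643 and 1.04 at day 2, 11.9 and 20.7 at day 6, and 4.28 and 1.51 at day 10. FOXA1 stood in NKX2-5 shRNA cells at 0 and 0.0358 CPM at day 0, 0.283 and 0.578 at day 2, 40.2 and 37.9 at day 6, and 85.1 and 67.2 at day 10. FOXA1 was thus still rising in NKX2-5 shRNA cells after day 6 (log2 change 0.91, standard error 0.27, adjusted p = 0.0254), whereas in WT cells it fell by 2.36 (adjusted p = 0.000992). The rise did not pass without either NKX2-5 shRNA library of day 6 (adjusted p = 0.115 and 0.13). FOXA1 stood in ZEB2 shRNA cells at 0.615 and 0.619 CPM at day 0, 1.27 and 1.33 at day 2, 16.4 and 20.5 at day 6, and 12.8 and 14.4 at day 10. FOXA1 stood in ZNF503 shRNA cells at 1.66 and 1.34 CPM at day 0, 1.42 and 1.62 at day 2, and 63.4 and 70.7 at day 6. NKX2-5 shRNA cells at day 10 and ZNF503 shRNA cells at day 6 were the 2 highest groups, and their libraries overlapped.

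FOXA3, the third paralogue, was the flattest of the 3 and was present before differentiation. WT cells had 7.10 and 7.43 CPM of FOXA3 at day 0, 7.24 and 8.40 at day 2, 10.4 and 11.7 at day 6, and 2.73 and 2.04 at day 10. NKX2-5 shRNA cells had 5.31 and 6.89 CPM at day 0, 5.74 and 7.80 at day 2, 30.1 and 25.6 at day 6, and 18.0 and 14.6 at day 10. Its whole range at days 0 and 2 was narrow, from 4.76 to 8.94 CPM over all 16 libraries of those days. ZEB2 shRNA cells had 8.38 and 8.94 CPM at day 0, 7.72 and 7.79 at day 2, 13.8 and 16.3 at day 6, and 10.0 and 8.75 at day 10. ZNF503 shRNA cells had 6.50 and 5.99 CPM at day 0, 4.76 and 4.95 at day 2, and 27.9 and 28.8 at day 6. At day 6 the lines separated, with NKX2-5 and ZNF503 shRNA cells overlapping each other and lying above the rest.

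HNF4A had the widest range of the 8 factors, from no count in either library of WT and of ZEB2 shRNA cells at day 2 to 573 CPM at day 6. In WT cells it was at 0.374 and 0.392 CPM at day 0, 0 and 0 at day 2, 36.6 and 85.7 at day 6, and 18.5 and 8.39 at day 10. HNF4A was in NKX2-5 shRNA cells at 0.103 and 0.0358 CPM at day 0, 0.0709 and 0 at day 2, 488 and 520 at day 6, and 172 and 216 at day 10. Against the floor of 3 counts, the increase between days 2 and 6 was at least 436-fold in WT cells. HNF4A was in ZEB2 shRNA cells at 2.00 and 1.49 CPM at day 0, 0 and 0 at day 2, 75.9 and 92.6 at day 6, and 75.3 and 79.6 at day 10. HNF4A was in ZNF503 shRNA cells at 0.0450 and 0 CPM at day 0, 0.0449 and 0.0900 at day 2, and 573 and 520 at day 6. NKX2-5 and ZNF503 shRNA cells at day 6 overlapped and were well above all other groups, while the libraries of ZEB2 shRNA and WT cells at day 6 overlapped as well. The 2 WT libraries at day 6 differed by 2.34-fold, and FOXA2 by 2.62-fold between the same libraries.

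HNF4A is known to be transcribed from a pair of promoters far apart, the downstream one being the adult liver promoter. The gene spans 42984339 to 43061485 of chromosome 20 on GRCh37, plus strand. Its 7 RefSeq transcripts share most exons, and 5 of them held nearly the same counts, the 4 beside the one used being at 99.8, 98.6, 97.4 and 96.2% of its total. The other 2 were at 32.1 and 29.7%, so the counts do not tell the promoters apart. The promoter windows that RefSeq gives for HNF4A (250 bases before to 50 bases after the start, GRCh38.p14, plus strand) are shown because HNF4A had the widest range of the 8 factors, with capitals for motif matches.

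HNF4A upstream start, chr20:44355449-44355748: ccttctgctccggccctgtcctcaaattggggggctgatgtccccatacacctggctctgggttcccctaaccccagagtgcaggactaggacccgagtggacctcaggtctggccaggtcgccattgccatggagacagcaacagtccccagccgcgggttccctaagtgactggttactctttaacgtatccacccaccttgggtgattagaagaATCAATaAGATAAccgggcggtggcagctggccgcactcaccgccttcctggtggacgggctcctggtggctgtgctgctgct
HNF4A downstream start, chr20:44400989-44401288: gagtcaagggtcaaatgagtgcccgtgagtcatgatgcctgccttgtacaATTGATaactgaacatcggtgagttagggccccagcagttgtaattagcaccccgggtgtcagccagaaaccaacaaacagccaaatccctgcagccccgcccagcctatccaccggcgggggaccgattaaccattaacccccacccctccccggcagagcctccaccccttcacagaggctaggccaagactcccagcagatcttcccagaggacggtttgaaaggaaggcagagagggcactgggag

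The upstream window holds the ONECUT letters ATCAAT beside the GATA letters AGATAA, and the downstream window holds the ONECUT letters on the other strand, ATTGAT. Matches were searched on both strands and are descriptions of letters, not of bound sites. Of 35116 windows of this length in the table, 6.26% hold the ONECUT letters and 10.3% hold the GATA letters. The FOXA letters TGTTTAC and TATTTAC, found in 3.42 and 2.67% of windows, the HNF4A letters CAAAGTCCA, found in 0.384%, and the SOX letters ACAAAG, found in 16.1%, did not occur in either HNF4A window. Of the other members with a window in the table, FOXA1 had 3 matches to the SOX letters, and FOXA3, HHEX and ONECUT1 had no match to any of the letters. FOXA2, PROX1 and SOX17 had no entry in the table.

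ONECUT1, a cut homeobox factor of liver and pancreas, ran against the others and was highest before differentiation, although in ZEB2 shRNA cells the libraries of days 0 and 2 overlapped. In WT cells it was at 24.4 and 29.4 CPM at day 0, 9.04 and 11.5 at day 2, 2.51 and 5.15 at day 6, and 4.69 and 3.44 at day 10. ONECUT1 was in NKX2-5 shRNA cells at 56.5 and 44.1 CPM at day 0, 10.9 and 11.4 at day 2, 17.4 and 14.3 at day 6, and 7.78 and 13.2 at day 10. The libraries of days 6 and 10 overlapped in WT cells, and those of NKX2-5 shRNA cells lay above them at both days. ONECUT1 was in ZEB2 shRNA cells at 19.9 and 14.2 CPM at day 0, 15.2 and 14.4 at day 2, 3.85 and 4.79 at day 6, and 12.2 and 11.2 at day 10. ONECUT1 was in ZNF503 shRNA cells at 40.6 and 46.4 CPM at day 0, 20.0 and 18.9 at day 2, and 21.6 and 17.7 at day 6. Ordered by mean, 10 of its 14 neighbouring pairs of groups overlapped, the most of any of the 8 genes.

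HHEX, a homeobox factor of anterior endoderm that endothelial and blood precursors share, separated the lines in another direction. WT cells gave 4.94 and 3.90 CPM of HHEX at day 0, 48.9 and 47.8 at day 2, 53.6 and 71.2 at day 6, and 4.43 and 2.26 at day 10. NKX2-5 shRNA cells gave 4.08 and 3.85 CPM at day 0, 66.9 and 69.4 at day 2, 8.20 and 7.79 at day 6, and 5.82 and 5.81 at day 10. The high level thus lasted through day 6 in WT cells but was gone by day 6 in NKX2-5 shRNA cells. ZEB2 shRNA cells gave 5.78 and 3.96 CPM at day 0, 57.1 and 55.1 at day 2, 55.1 and 56.6 at day 6, and 9.92 and 12 at day 10. ZNF503 shRNA cells gave 6.07 and 6.39 CPM at day 0, 13.8 and 20.1 at day 2, and 19.4 and 24.6 at day 6. In that line HHEX never reached the level of the others at day 2, and the libraries of days 2 and 6 overlapped.

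PROX1, a homeobox factor of liver, lens, lymphatic vessels and heart muscle, was the only one of the 8 that was highest in WT cells at day 10. It was at 5.04 and 5.21 CPM in WT cells at day 0, 23.1 and 24.8 at day 2, 61.8 and 52.2 at day 6, and 184 and 183 at day 10. PROX1 was in NKX2-5 shRNA cells at 7.75 and 6.54 CPM at day 0, 25.7 and 24.9 at day 2, 4.71 and 4.97 at day 6, and 46.7 and 46.0 at day 10. All lines had climbed to between 19.2 and 26.9 CPM at day 2, and the values at day 6 fell apart. PROX1 was in ZEB2 shRNA cells at 4.92 and 4.23 CPM at day 0, 26.9 and 24.9 at day 2, 51.1 and 44 at day 6, and 56.3 and 53.6 at day 10. PROX1 was in ZNF503 shRNA cells at 4.81 and 3.78 CPM at day 0, 19.2 and 23.1 at day 2, and 8.04 and 5.92 at day 6.

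**Figure D1:**
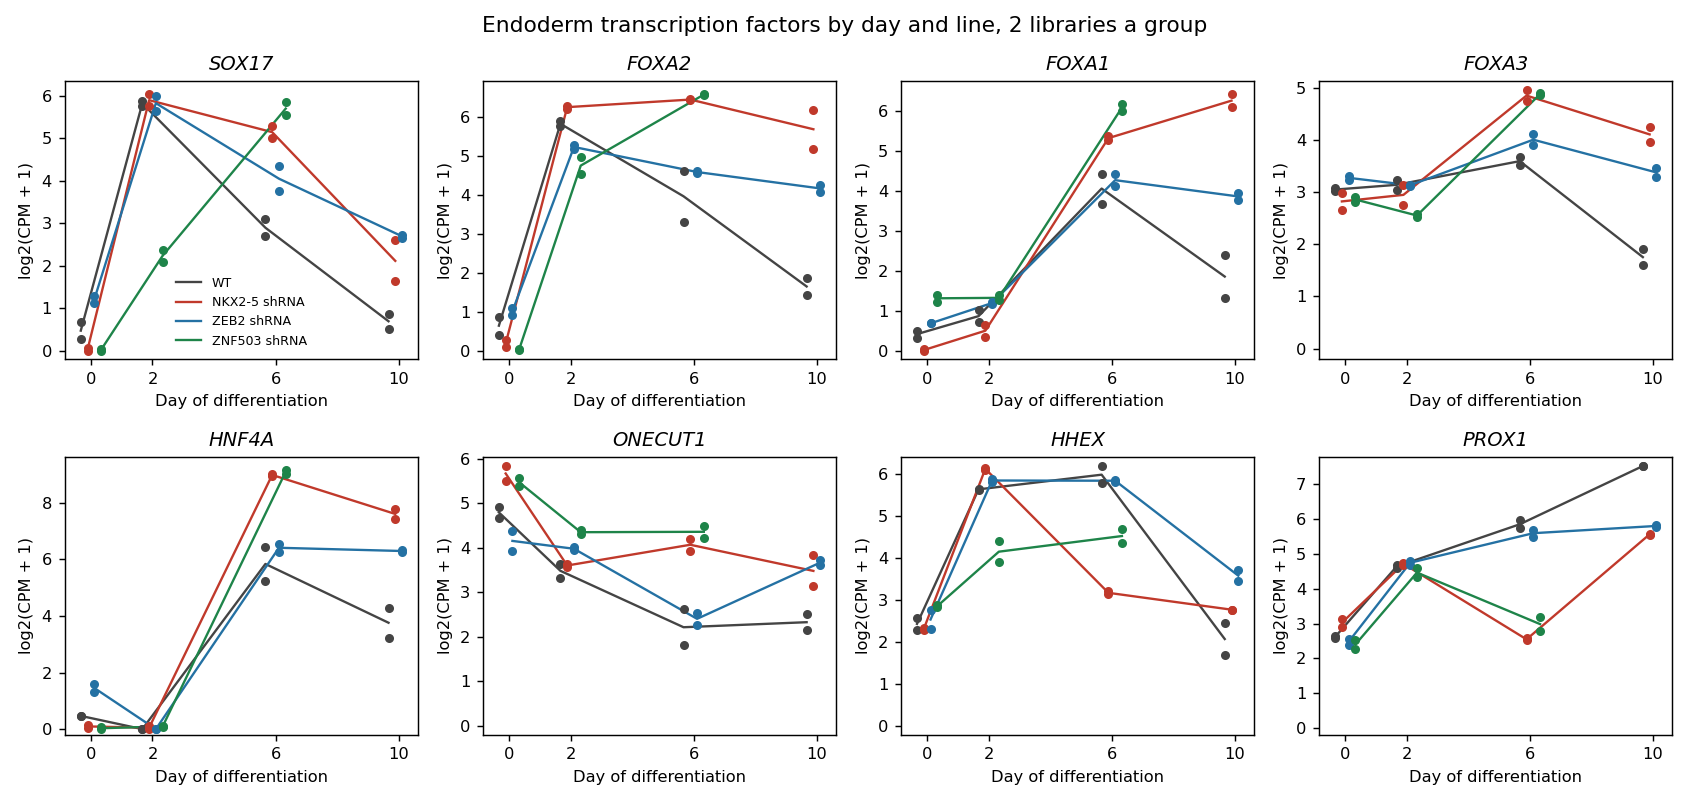
Level of each factor as log2(CPM + 1) on the vertical axis against day of differentiation, with 1 panel a gene, 1 point a library and lines through the mean of the 2 libraries of a group. At day 6 the red and green lines (NKX2-5 and ZNF503 shRNA) lie above WT for the 6 genes SOX17, FOXA2, FOXA1, FOXA3, HNF4A and ONECUT1, and below WT for HHEX and PROX1.

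Before differentiation, the lines already differed from WT cells in several of these genes, those called being at 2.00 CPM or less. At day 0, 4 of the 8 factors were called in NKX2-5 shRNA cells (SOX17, FOXA1, FOXA2 and HNF4A, all lower), against 4.03% of all genes tested. SOX17 in that line had 0 and 2 counts, a ratio to WT cells of 18.8-fold lower with a counting interval from 4.77 to 162, and FOXA1 had the same counts. Called in ZEB2 shRNA cells were 2 factors, SOX17 and HNF4A, both higher, against 2.20% of all genes. Of these SOX17 did not pass 5% FDR (log2 fold change 1.70, adjusted p = 0.0937). In ZNF503 shRNA cells 4 were called against 2.56% of all genes, FOXA1 higher (log2 fold change 2.11, standard error 0.44, adjusted p = 0.0165) and SOX17, FOXA2 and HNF4A lower. ONECUT1, the most abundant factor among those that passed 5% FDR, rose in NKX2-5 shRNA cells by 0.88 (adjusted p = 0.00604) and in ZNF503 shRNA cells by 0.69 (adjusted p = 0.0331), and fell by 0.68 in ZEB2 shRNA cells (adjusted p = 0.0481). The call at 5% FDR was lost for all 12 of these results in at least 1 fit that left out a library. WT replicate 1 was such a library for ONECUT1 in all 3 lines, with log2 values without it of 0.75, 0.56 and -0.81.

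At day 2 the difference lay in ZNF503 shRNA cells. SOX17 was called there, at a log2 fold change of -4.01 against WT cells (standard error 0.18, adjusted p = 1.7e-09), or 16.1-fold lower. ZNF503 itself had only 32 to 89 counts a library in these groups, too few to settle its knockdown, and its part in the SOX17 values was not tested. SOX17 was the only member called, against 2.80% of all genes. At 5% FDR 4 factors fell and 1 rose in this line, against 26.9% of all genes. Those that fell beside SOX17 were HHEX (log2 fold change -1.59, standard error 0.15, adjusted p = 2.51e-06), FOXA2 (-1.15, 0.14, adjusted p = 2.93e-05) and FOXA3 (-0.74, 0.21, adjusted p = 0.016). ONECUT1 rose by 0.88 (standard error 0.16, adjusted p = 0.000729). FOXA3 no longer passed when ZNF503 shRNA replicate 1 (log2 fold change -0.67, adjusted p = 0.114) or WT replicate 2 (-0.62, adjusted p = 0.114) was left out.

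At day 2 in NKX2-5 shRNA cells no member was called, against 1.19% of all genes, and 2 rose at 5% FDR against 26.7% of all genes. These were HHEX (log2 fold change 0.46, adjusted p = 0.0276) and FOXA2 (0.40, adjusted p = 0.0416), and both lost 5% FDR with any 1 library left out (adjusted p from 0.0646 to 0.203) and without TMM factors, a scaling that moved the median of all genes by -0.13 in this comparison. SOX17 did not differ detectably (log2 fold change 0.05, 95% interval -0.24 to 0.34). No member was called in ZEB2 shRNA cells, against 0.133% of all genes, and none passed 5% FDR, against 0.490%. FOXA2 was closest there, at -0.65 (unadjusted p = 0.0003, adjusted p = 0.0582 in edgeR's test). HNF4A had at most 4 counts in any library of this day and was not tested.

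At day 6 all 8 factors differed from WT cells in both NKX2-5 and ZNF503 shRNA cells, and in the same direction in both lines, which were compared with the same WT libraries. At 5% FDR 6 rose and 2 fell in each line. The background is high: 49.1% of all genes tested passed 5% FDR in NKX2-5 shRNA cells and 55.7% in ZNF503 shRNA cells. The median log2 fold change of the 8 was 1.66 in NKX2-5 shRNA cells and 2.17 in ZNF503 shRNA cells, against a median over all genes of 0.00 and -0.03. All 16 results stayed past 5% FDR in every fit that omitted 1 library.

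With all libraries HNF4A had the largest rise of the 8 in both lines. It was 8.17-fold higher in NKX2-5 shRNA than in WT cells (3.03 on the log2 scale, standard error 0.29, adjusted p = 3.2e-06), and in ZNF503 shRNA cells 8.86-fold higher (3.15, 0.29, adjusted p = 2.89e-06). These lie close to the 8-fold threshold, and the call depends on which libraries are used. Without NKX2-5 shRNA replicate 2 the value in that line was 2.98, under the threshold. Without WT replicate 1 the values were 2.55 and 2.67, the latter below the 2.76 of SOX17 in the same fit, and without WT replicate 2 they were 3.77 and 3.88. FOXA2 rose by 2.38 (standard error 0.29, adjusted p = 3e-05) in NKX2-5 shRNA cells and by 2.51 (0.30, adjusted p = 2.2e-05) in ZNF503 shRNA cells. Its values without WT replicate 2 were 3.25 and 3.37, and without WT replicate 1 they were 1.87 and 2.00. SOX17 rose by 2.39 (standard error 0.23, adjusted p = 4.18e-06) and by 2.96 (0.24, adjusted p = 9.83e-07). ONECUT1 rose by 2.00 (0.28, adjusted p = 9.17e-05) and by 2.31 (0.29, adjusted p = 3.27e-05). FOXA1 rose by 1.24 and 2.03, and FOXA3 by 1.32 and 1.35, with adjusted p values between 1.04e-05 and 0.000425.

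PROX1 and HHEX moved the other way at day 6. PROX1 fell in NKX2-5 shRNA cells by 3.56 on the log2 scale (standard error 0.18, adjusted p = 1.91e-08), 11.8-fold, and in ZNF503 shRNA cells by 3.04 (0.18, adjusted p = 9.37e-08), 8.24-fold. HHEX fell by 2.97 (0.18, adjusted p = 5.95e-08) and by 1.51 (0.17, adjusted p = 1.22e-05). Called members were HNF4A and PROX1 in each line, 2 of 8, against 4.71% of all genes in NKX2-5 shRNA cells and 3.91% in ZNF503 shRNA cells. Counting only calls toward higher values, 1 of 8 stands against 1.29% and 1.00% of all genes. In ZNF503 shRNA cells neither gene was called without WT replicate 1, where PROX1 was at -2.92.

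ZEB2 shRNA cells stayed close to WT cells at day 6. SOX17 was the only factor past 5% FDR, against 11.0% of all genes, and rose by 1.25 (standard error 0.24, adjusted p = 0.00432). None of the 8 was called, against 0.462% of all genes. HNF4A was at a log2 fold change of 0.46 (95% interval -0.07 to 0.99), FOXA2 at 0.49 (-0.08 to 1.06), FOXA1 at 0.16 (-0.27 to 0.58), HHEX at -0.16 (-0.47 to 0.16) and PROX1 at -0.25 (-0.57 to 0.06). FOXA3 was at 0.43 and ONECUT1 at 0.11. The FOXA3 libraries, at 13.8 and 16.3 CPM, lay above the 10.4 and 11.7 CPM of WT cells, though the difference did not pass 5% FDR.

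At day 10 most of the 8 factors, but not PROX1, were higher in both lines that could be compared with WT cells. At 5% FDR 6 rose and 1 fell in NKX2-5 shRNA cells, against 43.9% of all genes, and in ZEB2 shRNA cells 7 rose and 1 fell, against 18.2%. The medians of the 8 log2 fold changes were 2.59 and 2.04, and the medians over all genes were 0.03 in both. In NKX2-5 shRNA cells FOXA1 was 25.0-fold higher (log2 fold change 4.64, standard error 0.44, adjusted p = 0.000445), FOXA2 23.8-fold (4.58, 0.43, adjusted p = 0.000448) and HNF4A 14.3-fold (3.84, 0.37, adjusted p = 0.000462). These 3 were called, against 7.31% of all genes or 4.46% in the higher direction, and FOXA2 was at 4.34 with an adjusted p of 0.0109, above 1%, without WT replicate 4. FOXA3 rose by 2.75 (adjusted p = 0.000982), SOX17 by 2.43 (adjusted p = 0.0138) and ONECUT1 by 1.36 (adjusted p = 0.0205). SOX17 and ONECUT1 lost 5% FDR without WT replicate 3 (adjusted p = 0.0539 and 0.0605) or without WT replicate 4 (adjusted p = 0.0809 and 0.105). HHEX was at 0.77 (95% interval 0.01 to 1.54, adjusted p = 0.146). PROX1 fell by 1.98 (0.17, adjusted p = 0.000349).

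No member was called in ZEB2 shRNA cells at day 10, against 1.46% of all genes or 0.976% in the higher direction. SOX17 rose by 3.03 (standard error 0.59, adjusted p = 0.0148), FOXA2 by 2.91 (0.41, adjusted p = 0.00556) and HNF4A by 2.50 (0.35, adjusted p = 0.0053). FOXA1 rose by 2.14, FOXA3 by 1.95, HHEX by 1.67 and ONECUT1 by 1.51, with adjusted p values between 0.00884 and 0.0301. PROX1 fell by 1.75 (0.17, adjusted p = 0.00224). HNF4A and PROX1 passed 5% FDR with each library left out. The other 6 did not in at least 1 such fit, and without WT replicate 4 their adjusted p values were between 0.0503 and 0.149. In this comparison the scaling without TMM factors moved the median of all genes by 0.18. WT cells themselves were at low levels at day 10, with 4 to 16 counts of SOX17 and 78 to 359 counts of HNF4A a library.

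**Figure D2:**
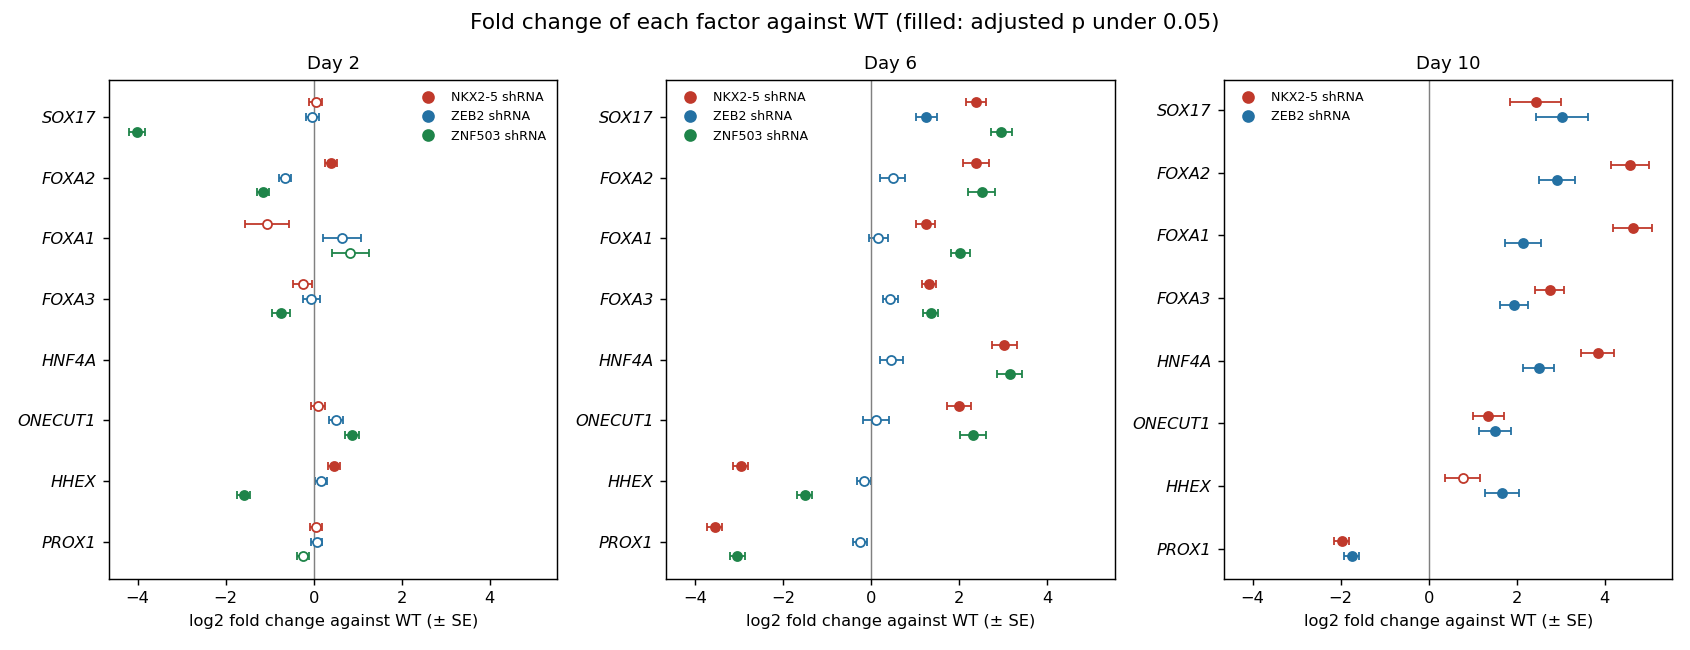
Log2 fold change against WT on the horizontal axis for each factor at days 2, 6 and 10, with bars for the standard error and filled points for an adjusted p under 0.05. At day 6 the points of NKX2-5 and ZNF503 shRNA cells lie on the same side of 0 for all 8 genes, and HNF4A at day 2 is not shown because it was not tested.

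Direct comparison of the lines showed where they differed. At day 6 NKX2-5 and ZNF503 shRNA cells differed at 5% FDR in 2 of 8 factors, against 14.7% of all genes. HHEX was lower in NKX2-5 than in ZNF503 shRNA cells (log2 difference -1.47, standard error 0.17, adjusted p = 0.000283), and so was FOXA1 (-0.78, 0.21, adjusted p = 0.0271). The FOXA1 result did not pass without any one of the 4 libraries, with adjusted p values between 0.0917 and 0.137. HNF4A did not differ detectably (-0.12, 95% interval -0.64 to 0.40), nor did FOXA3 (-0.03, -0.34 to 0.28) or FOXA2 (-0.13, -0.67 to 0.41). At day 2 the same lines differed at 5% FDR in 5 of the 7 factors tested, against 39.5% of all genes. SOX17 was higher in NKX2-5 shRNA cells by 4.07 (standard error 0.18, adjusted p = 6.15e-10), HHEX by 2.05 (0.15, adjusted p = 1.22e-07) and FOXA2 by 1.55 (0.14, adjusted p = 1.02e-06). FOXA1 was lower there, at -1.90 (0.44, adjusted p = 0.00327), and so was ONECUT1, at -0.78 (0.15, adjusted p = 0.000977). The FOXA1 difference did not pass without NKX2-5 shRNA replicate 1 (-1.32, adjusted p = 0.0757). At day 10 NKX2-5 and ZEB2 shRNA cells differed at 5% FDR in 3 of 8 factors, against 21.3% of all genes. FOXA1 was higher in NKX2-5 shRNA cells by 2.50 (0.39, adjusted p = 0.00739), FOXA2 by 1.67 (0.37, adjusted p = 0.0211) and HNF4A by 1.34 (0.33, adjusted p = 0.0299). All 3 lost 5% FDR when either ZEB2 shRNA library was left out, with adjusted p values between 0.0655 and 0.189. For PROX1 the difference was -0.23 (95% interval -0.56 to 0.10).

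The change over time was compared between lines through an interaction term, which asks whether a line's change differs from that of WT cells over the same interval. Between days 2 and 6 the change in NKX2-5 shRNA cells differed at 5% FDR for 7 of 8 factors, against 46.0% of all genes. HHEX, which kept its level in WT cells (log2 change 0.35, adjusted p = 0.18), fell in NKX2-5 shRNA cells by 3.11, a difference of -3.45 (standard error 0.24, adjusted p = 1.2e-08). PROX1 rose in WT cells by 1.23 and fell in NKX2-5 shRNA cells by 2.40, a difference of -3.62 (0.23, adjusted p = 3.51e-09). HHEX and PROX1 were the 2 factors called, against 3.78% of all genes. SOX17, FOXA1, FOXA2, ONECUT1 and FOXA3 differed by 1.56 to 2.33, all toward a higher level in NKX2-5 shRNA cells.

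In ZNF503 shRNA cells the change between days 2 and 6 differed from that in WT cells most for SOX17, by 6.95 (standard error 0.33, adjusted p = 1.57e-10). It rose there by 3.81 (0.21, adjusted p = 8.7e-10) while it fell in WT cells. FOXA2 differed by 3.64 (0.37, adjusted p = 6.31e-07). These 2 were called, against 3.81% of all genes. FOXA3 differed by 2.08, ONECUT1 by 1.42 and FOXA1 by 1.18 (adjusted p = 0.0376, and from 0.073 to 0.208 in the 4 of 8 fits without 1 library that lost it), and PROX1 by -2.82 (0.23, adjusted p = 5.12e-08). HHEX, low at both days in this line, did not differ in its change (0.07, standard error 0.24, adjusted p = 0.848). For HNF4A the difference cannot be estimated over this interval, since WT cells held no count at day 2.

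Between days 6 and 10, 7 of the 8 factors changed in WT cells at 5% FDR, against 57.5% of all genes. Of these 6 fell, among them HHEX by 4.10 (standard error 0.26, adjusted p = 1.9e-06) and HNF4A by 2.11 (0.42, adjusted p = 0.00217), and PROX1 rose by 1.72 (0.12, adjusted p = 2.87e-06). Over these days FOXA1 in NKX2-5 shRNA cells differed from WT cells in its change by 3.37 (0.47, adjusted p = 0.000404), and HHEX by 3.72 (0.36, adjusted p = 4.4e-05). HHEX did not rise in NKX2-5 shRNA cells (log2 change -0.51), where it was already low at day 6, and the difference reflects its larger fall in WT cells. FOXA1 and HHEX were the 2 of 8 called, against 3.30% of all genes. FOXA2 differed by 2.17 (adjusted p = 0.0165), PROX1 by 1.59 (adjusted p = 0.000498) and FOXA3 by 1.43 (adjusted p = 0.00525). FOXA2 no longer passed without WT replicate 2 of day 6 (1.33, adjusted p = 0.0745) or WT replicate 4 of day 10 (1.92, adjusted p = 0.0739). SOX17 fell in parallel in both lines, with a difference of 0.01 (standard error 0.35). In ZEB2 shRNA cells the change over these days differed from that in WT cells at 5% FDR for 6 of 8 factors, against 7.04% of all genes. Of these, 5 differed toward a higher level and 1, PROX1, toward a lower one. FOXA1, FOXA2, FOXA3 and HHEX differed by 1.92, 2.37, 1.48 and 1.78, with lowest values of 1.49, 1.53, 1.34 and 1.48 without 1 library. HNF4A held its level in ZEB2 shRNA cells (log2 change -0.13, adjusted p = 0.459), and its change differed from that in WT cells by 2.00 (0.50, adjusted p = 0.0329). That last result did not pass in 6 of the 8 fits that left out a library, WT replicate 2 of day 6 (1.28, adjusted p = 0.16) among them. PROX1 differed there by -1.51 (0.22, adjusted p = 0.00297) and passed in all 8 such fits.

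Counted over all genes tested, WT cells called 8.36% between days 0 and 2, 8.35% between days 2 and 6 and 3.94% between days 6 and 10. Of the 8 factors, 5 were called over the first interval (SOX17, FOXA2, HHEX and PROX1 higher, HNF4A lower), 3 over the second (FOXA1 and HNF4A higher, SOX17 lower) and 2 over the third (SOX17 and HHEX lower). The HNF4A call over the first interval rests on 14 and 15 counts at day 0 and none at day 2, at least 2.73-fold lower, and did not pass 5% FDR (adjusted p = 0.06).

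**Figure D3:**
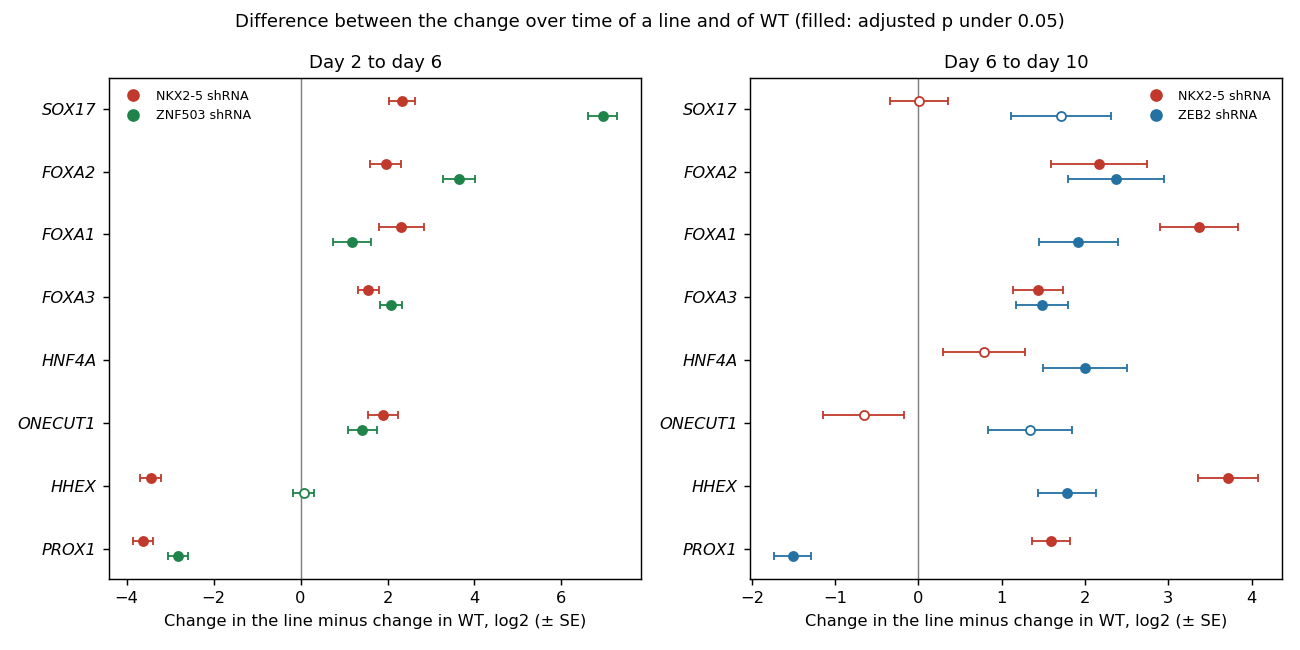
Difference between the log2 change of an shRNA line and that of WT cells over the same interval, on the horizontal axis, with bars for the standard error and filled points for an adjusted p under 0.05. Between days 2 and 6 SOX17 in ZNF503 shRNA cells stands farthest to the right at 6.95, and HHEX and PROX1 in NKX2-5 shRNA cells stand farthest to the left at -3.45 and -3.62. HNF4A is left out of the first panel.

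Levels of different genes can be set side by side only per length, as RPKM (CPM divided by the transcript length in kilobases). On that scale ONECUT1 led in WT cells at day 0 with a mean of 6.18 RPKM, HHEX at day 2 with 28.0 and at day 6 with 36.2, and PROX1 at day 10 with 21.7. HNF4A led in NKX2-5 shRNA cells at day 6 with 108 RPKM and at day 10 with 41.9. FOXA2 came second at day 6 there with 34.1 RPKM, and at day 10 FOXA1 with 21.7 and FOXA2 with 21.2 followed side by side. In ZNF503 shRNA cells at day 6 HNF4A led with 118 RPKM, ahead of FOXA2 with 37.3 and SOX17 with 21.9. HHEX led in ZEB2 shRNA cells at day 6 with 32.4 RPKM as in WT cells, and at day 10 HNF4A led with 16.7. The factor with the highest level per length at day 6 thus differed between lines.

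**Figure D4:**
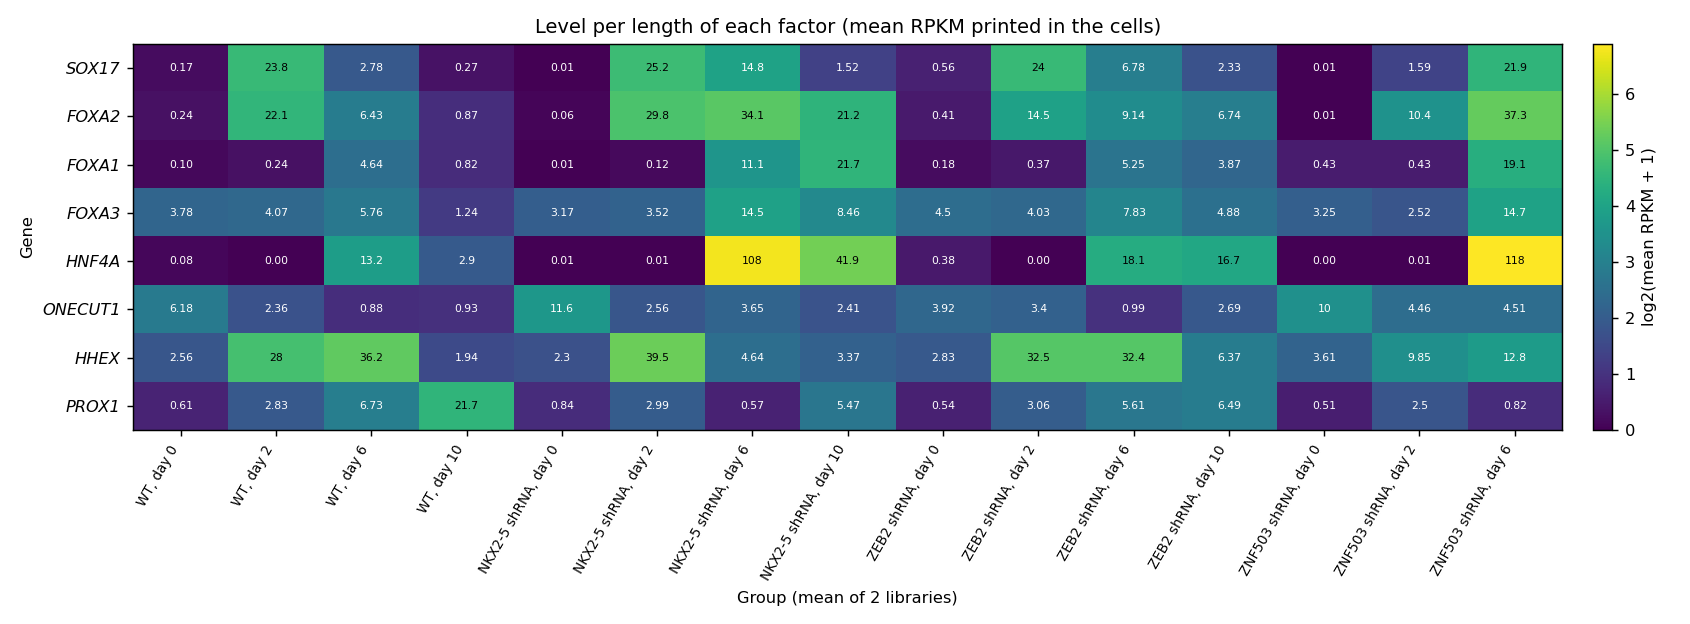
Mean RPKM of each factor (rows) in each group (columns), printed in the cells and coloured as log2(mean RPKM + 1). HNF4A in NKX2-5 and ZNF503 shRNA cells at day 6 has the highest values, 108 and 118, and PROX1 is highest in WT cells at day 10 with 21.7.

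Other genes of mesendoderm and definitive endoderm were counted next, and their order of action relative to the 8 factors was not tested. A list of 13 genes of mesendoderm and definitive endoderm induction includes the nodal ligand NODAL, the T-box factor EOMES, the homeobox factors LHX1, MIXL1 and GSC, the nodal inhibitor CER1 and the chemokine receptor CXCR4. In ZNF503 shRNA cells at day 2, when SOX17 was low, 11 of the 13 fell at 5% FDR and none rose. The share of all genes past 5% FDR was 26.9%, and the median log2 fold change was -1.59 against -0.01 over all genes. CXCR4 was at 2.87 ± 0.179 CPM (SD, n = 2) against 52.7 ± 4.60 in WT cells, LHX1 at 28.8 ± 6.45 against 294 ± 24.3, and PRDM1 at 2.18 CPM against 18.2. In the same libraries all 5 pluripotency genes rose, with a median of 0.79 and sums of 1516 and 1625 CPM against 924.3 and 948.5 in WT cells, and their part in the SOX17 values was not tested. The induction list differed before differentiation too: at day 0, 6 of the 13 fell in each of NKX2-5 and ZNF503 shRNA cells and none rose. In ZEB2 shRNA cells 7 rose and none fell. The shares of all genes past 5% FDR at day 0 were 15.9% in NKX2-5, 7.53% in ZNF503 and 3.93% in ZEB2 shRNA cells. In NKX2-5 shRNA cells at day 2, 5 of the 13 rose and 1 fell, against 26.7% of all genes. In ZEB2 shRNA cells at day 6, when SOX17 alone of the 8 factors passed 5% FDR, 6 rose and none fell, against 11.0% of all genes. Called among these were NODAL (log2 fold change 5.17, standard error 0.29, adjusted p = 1.18e-06), EOMES (3.98, 0.20, adjusted p = 5.1e-07) and CER1 (3.49, 0.33, adjusted p = 3.17e-05).

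Of 6 paralogues, 4 passed the filter in each comparison. At day 6, 1 of them rose in NKX2-5 and 2 in ZNF503 shRNA cells, and none fell, against 49.1% and 55.7% of all genes past 5% FDR. In NKX2-5 shRNA cells of day 10 all 4 rose, against 43.9% of all genes. ONECUT2 was called at 4.42 (standard error 0.70, adjusted p = 0.00265), HNF4G at 4.11 (0.45, adjusted p = 0.000751) and SOX7 at 3.08 (0.51, adjusted p = 0.00327). At day 10 in ZEB2 shRNA cells 3 rose, against 18.2% of all genes. Of these, SOX7 at 4.27 (0.52, adjusted p = 0.00366) and HNF4G at 3.46 (0.45, adjusted p = 0.00424) were called.

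Among 12 further regulators of gut tube and liver, 9 were tested at day 6. At 5% FDR 7 rose and 2 fell in NKX2-5 shRNA cells, and in ZNF503 shRNA cells 6 rose and 2 fell. The shares of all genes were 49.1% and 55.7%. CDX2, a hindgut factor, was at 4.84 CPM in NKX2-5 and 1.71 in ZNF503 shRNA cells against 0.164 in WT cells. PAX9, a factor of the pharyngeal endoderm, was near the floor in NKX2-5 shRNA cells at 0.0568 CPM, against 0.534 in WT cells. NKX2-1, the lung and thyroid factor, had no count in either shRNA line and 0.780 CPM in WT cells, at least 9.15-fold lower in NKX2-5 and 5.69-fold lower in the ZNF503 shRNA line. In NKX2-5 shRNA cells of day 10, 7 of 9 rose and none fell, against 43.9% of all genes. CREB3L3, a liver transcription factor, rose by 5.79 (0.30, adjusted p = 0.000151).

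Genes that these factors are known to drive were counted as well. Of 20 hepatic and yolk sac secretory genes, 16 of the 19 tested rose at day 6 in NKX2-5 shRNA cells and 14 in ZNF503 shRNA cells. No gene fell, and the medians were 2.70 and 1.85. The shares of all genes past 5% FDR were 49.1% and 55.7%. APOB, the core protein of lipoproteins, was at 4079 ± 73.3 CPM (SD, n = 2) in NKX2-5 and 2820 ± 44.6 in ZNF503 shRNA cells, against 307 ± 166 in WT cells. APOA1 was at 1149 ± 63.7 and 1009 ± 70.1 CPM against 112 ± 64.1, and TTR, which carries thyroid hormone, at 1236 ± 39.6 and 1481 ± 100.3 against 189.5 ± 83.9. None of the 19 rose at day 6 in ZEB2 shRNA cells and 2 fell, against 11.0% of all genes, with a median of 0.00. Of the list at day 10, all 20 rose in NKX2-5 and 11 in ZEB2 shRNA cells, with medians of 3.67 and 1.80. The shares of all genes were 43.9% and 18.2%. AFP, the fetal serum protein of yolk sac and liver, was then at 25110 CPM in NKX2-5, 5388 in ZEB2 shRNA and 2070 in WT cells, with SDs of 7553, 775 and 1228. Over time the list and the factors parted. Between days 6 and 10 in WT cells, where 6 of the 8 factors fell, 14 of the 19 secretory genes tested rose and 1 fell. Their median log2 change was 2.84, and the share of all genes past 5% FDR was 57.5%. In NKX2-5 shRNA cells 17 of 20 rose over these days and none fell, against 49.1% of all genes. The median of the 20 was 3.84, while HNF4A fell by 1.42 (standard error 0.22, adjusted p = 0.0017).

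Of 9 genes of endoderm epithelium, 8 were tested at day 6, and 6 rose in each of NKX2-5 and ZNF503 shRNA cells while 2 and 1 fell. The shares of all genes past 5% FDR were 49.1% and 55.7%. At day 10, 8 of 9 rose and none fell in NKX2-5 shRNA cells, against 43.9% of all genes. In ZEB2 shRNA cells 7 rose and 1 fell, against 18.2%. The one that fell was CDH2 (N-cadherin), at 413 CPM against 1044 in WT cells. VIL1, the brush border protein villin, was at 136 CPM in NKX2-5 shRNA cells at day 10 against 7.81 in WT cells (4.09 on the log2 scale, standard error 0.46, adjusted p = 0.000802). CDH1 was at 224 CPM in NKX2-5 and 175 CPM in ZEB2 shRNA cells against 19.4 in WT cells.

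Several of the 8 factors are used in other cell types, and markers of those types were read in the same comparisons. The 11 cardiomyocyte genes summed to 7343 and 7482 CPM at day 6 in NKX2-5 and 9981 and 10449 in ZNF503 shRNA cells, against 35027 and 43075 in WT cells. All 11 fell in both lines, against 49.1% and 55.7% of all genes past 5% FDR. At day 10 they summed to 3235 and 4245 CPM in NKX2-5 and 13733 and 18789 in ZEB2 shRNA cells against 70477 and 79873 in WT cells. In these lines 11 and 5 of the 11 fell, against 43.9% and 18.2% of all genes. PROX1, which cardiac muscle also uses, fell in these 4 comparisons. At day 6 in ZEB2 shRNA cells 8 of the 11 fell as well, against 11.0% of all genes, to sums of 16771 and 17941 CPM. PROX1 did not differ detectably there (-0.25, 95% interval -0.57 to 0.06). At day 0, 2 of the 9 cardiomyocyte genes tested fell in NKX2-5 and 4 in ZNF503 shRNA cells, and 2 rose in ZEB2 shRNA cells. The shares of all genes in these lines were 15.9%, 7.53% and 3.93%. MYH6, the atrial myosin, was at 0.561 CPM in NKX2-5 and 11.0 CPM in ZNF503 shRNA cells at day 6 against 4284 in WT cells. The 3 lymphatic endothelial genes summed to between 6.07 and 14.1 CPM at day 6, and LYVE1 was at or under 3 counts in every group of that day. The part of heart muscle cells in the PROX1 values was not tested.

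The 12 endothelial genes, which bear on HHEX and SOX17, summed to 259 and 260 CPM at day 6 in NKX2-5 and 170 and 211 in ZNF503 shRNA cells against 508 and 616 in WT cells. Of the 12, 4 fell and 1 rose in NKX2-5 and 3 fell and 1 rose in ZNF503 shRNA cells. The shares of all genes past 5% FDR were 49.1% and 55.7%. KDR, the VEGF receptor that cardiac progenitors share, made up most of the sum, at 151 ± 1.66 and 107 ± 18.2 CPM against 436 ± 41.6. PECAM1, a defining endothelial gene, was at 4.85 ± 0.620 CPM in NKX2-5 shRNA and 4.82 ± 1.18 CPM in WT cells. The 7 blood genes at day 6 summed to 42.4 and 42.9 CPM in NKX2-5 and 12.2 and 13.4 in ZNF503 shRNA cells. In WT cells they summed to 13.2 and 23.3 CPM. Of 5 tested, 2 rose and 1 fell in NKX2-5 and 1 rose and 3 fell in ZNF503 shRNA cells, against the same shares of all genes. Among NKX2-5 shRNA cells of day 10, 10 of 11 endothelial genes tested rose and 1 fell, against 43.9% of all genes. PECAM1 rose there, at 17.8 CPM against 0.466 in WT cells of day 10, and all 7 blood genes rose. Their sum was 912 and 1040 CPM against 11.1 and 41.7 in WT cells. In ZEB2 shRNA cells 6 endothelial genes rose at day 10 and none fell, against 18.2% of all genes. The part of endothelial and blood cells in the values of HHEX and SOX17 was not tested.

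FOXA2 is also known from notochord and floor plate, and genes of these and of neural tissue were counted. The 8 notochord and floor plate genes summed to 31.8 and 34.2 CPM in NKX2-5 and 47.4 and 52.7 in ZNF503 shRNA cells at day 6 against 19.2 and 20.2 in WT cells, with NOTO and NKX6-1 at or under 3 counts in every one of these groups. Of 6 tested, 3 rose and none fell in each line, against 49.1% and 55.7% of all genes past 5% FDR. SHH rose in ZNF503 shRNA cells, at 1.77 CPM against 0.200 in WT cells. The 8 neural genes summed to 81.7 and 98.8 CPM in NKX2-5 and 151 and 192 in ZNF503 shRNA cells against 16.6 and 24.2 in WT cells, most of it TUBB3, and SOX1 and NEUROG2 were at or under 3 counts. Their part in the FOXA2 values was not tested. Of 5 pluripotency genes, 1 passed 5% FDR in each line at day 6, lower in NKX2-5 and ZEB2 and higher in ZNF503 shRNA cells. The shares of all genes in these lines were 49.1%, 11.0% and 55.7%.

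**Figure D5:**
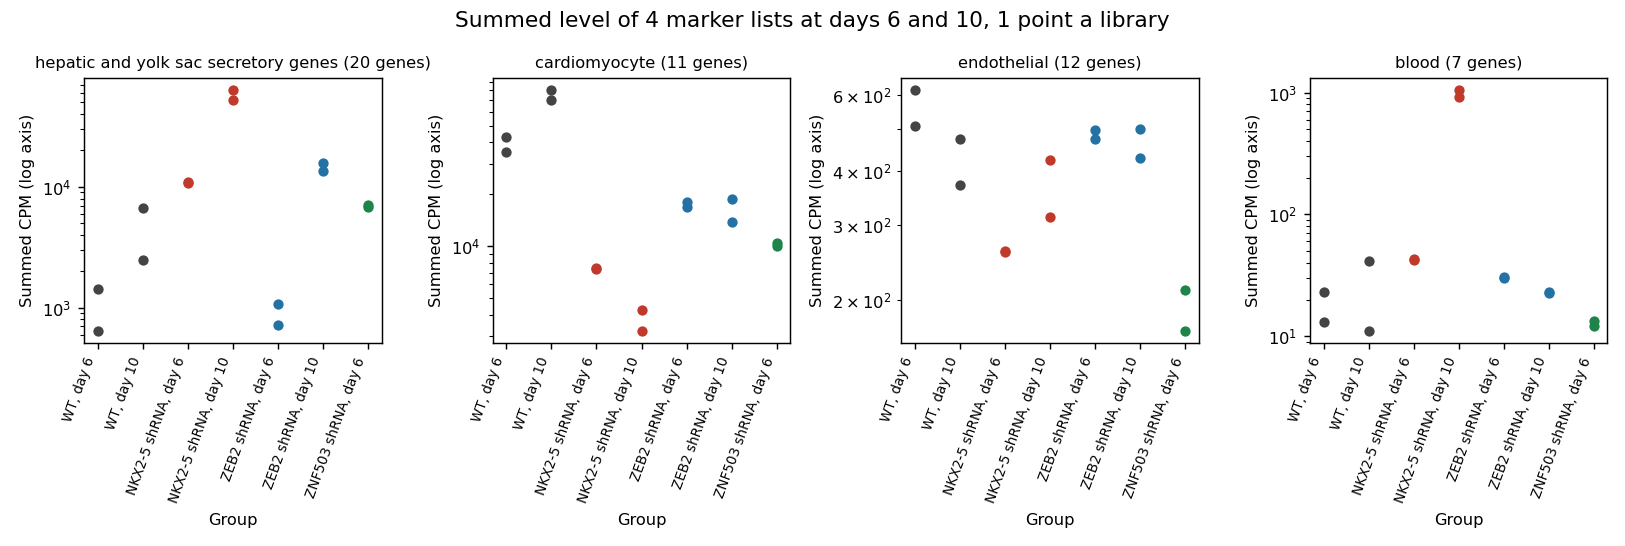
Summed CPM of 4 marker lists, on a log axis, in each group of days 6 and 10, with 1 point a library. Hepatic and yolk sac genes are higher in NKX2-5 and ZNF503 shRNA cells at day 6 and in NKX2-5 and ZEB2 shRNA cells at day 10 than in WT cells of the same day, cardiomyocyte genes are lower in these groups and in ZEB2 shRNA cells at day 6, and blood genes stand out in NKX2-5 shRNA cells at day 10 with 912 and 1040 CPM.

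Lastly, the genes whose pattern was most like that of each factor were found by Pearson's correlation of log2(CPM + 1) over the 15 group means, among 14682 genes. These groups share lines, days and WT controls, so the values describe these libraries only. HNF4A was most like SPTLC3 (r = 0.995), the brush border gene VIL1 (0.993) and the plasma protease HABP2 (0.992). FOXA1 was most like PLA2G12B (0.979), KIF12 (0.978) and CD34 (0.977), and FOXA3 most like SMAGP (0.949), the HNF4A paralogue HNF4G (0.947) and S100A13 (0.941). FOXA2 was most like CLCF1 (0.960), CFAP410 (0.938) and the long noncoding RNA LINC00261 (0.937), which lies beside FOXA2 in the genome. SOX17 was like SERPINE2 (0.932) and KLF8 (0.919). HHEX was most like ELMO1 (0.925), DYNLT2B (0.911) and LRIG3 (0.898), PROX1 most like SYNJ1 (0.967), GRIN2A (0.935) and SH3PXD2A (0.934), and ONECUT1 most like SOX13 (0.929), IGFBP2 (0.900) and CDS1 (0.896). Among the 8 factors themselves, FOXA1 and HNF4A were the closest pair (r = 0.96 over the same 15 group means), SOX17 and FOXA2 the next (0.89), and PROX1 and ONECUT1 the most opposed (-0.82).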

How the data were processed

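RNA sequencing counts of 34 libraries from 15 groups were deposited. The authors made stranded total RNA libraries and, by the submitters' processing notes, used TopHat2 2.0.14, Bowtie2 2.2.1.0 and hg19. They counted reads per RefSeq gene region with RSeQC, and the deposited values are raw read counts with no normalization. Libraries held between 9189943 and 90814577 counts. In 4 columns, WT and ZEB2 shRNA replicates 1 and 2 at day 10, the values do not follow the accessions (Spearman correlation with replicate 3 from 0.113 to 0.122, against 0.985 and 0.993 for replicate 4), so these 4 columns were not used and 30 libraries were. Of 41627 accessions 96.8% matched a symbol, and the row with the largest total stood for each of 23189 symbols.

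CPM, folds and tests came from R 4.3.3 and edgeR 4.0.16 (TMM, filterByExpr, glmQLFit, glmQLFTest). All groups of a day shared a fit, as did all days of a line, and all groups of both days for an interaction, with no replicate block. Standard errors were taken as the size of the log2 fold change over the root of its F statistic. RPKM used the length of the canonical transcript of each gene in GENCODE v44 lifted to GRCh37. Alternatives were DESeq2 1.42.0, other scalings, no filter, summed rows, 1 common fit, a replicate block, a 5% FDR rule and each library left out. Fits were tested on simulated data. Named genes are all 8 members, the 3 targeted genes, the 3 genes most like each member and up to 3 called genes a direction of each list whose libraries do not overlap. Of the genes most like the members, 1 is not reported here. Genes named beyond these were chosen after their values were seen. The members, lists and tests were chosen with earlier results of these data known.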

Additional observations from a re-analysis of the deposited data

Results flagged for a closer look

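The change over time differed between a line and WT cells, by the interaction term of edgeR's quasi-likelihood test, past the fold and FDR limits of the later day for 6 results. Between days 2 and 6 the difference was -3.45 for HHEX and -3.62 for PROX1 in NKX2-5 shRNA cells, and 6.95 for SOX17 and 3.64 for FOXA2 in ZNF503 shRNA cells, on the log2 scale. Between days 6 and 10 it was 3.37 for FOXA1 and 3.72 for HHEX in NKX2-5 shRNA cells. For HHEX this was a smaller fall, with a log2 change of -0.51 in NKX2-5 shRNA and -4.10 in WT cells. With 2 libraries a group, no group could be tested for a library that stands apart.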

How the results depend on the processing

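Of 188 member results, 120 passed 5% FDR, and none of these changed sign in any alternative. With each library left out in turn 82 of the 120 stayed past 5% FDR, and with the other settings 109 did. The counts of members called depend on the fold limit. With 5% FDR and no fold limit they were 2 at day 2 in NKX2-5 shRNA and 5 in ZNF503 shRNA cells, 8, 1 and 8 at day 6 in NKX2-5, ZEB2 and ZNF503 shRNA cells, and 7 and 8 at day 10 in NKX2-5 and ZEB2 shRNA cells. For changes over time they were 6 in WT cells from day 2 to day 6, 7 from day 6 to day 10, and for the difference in change 7 in NKX2-5 and 6 in ZNF503 shRNA cells from day 2 to day 6 and 5 in NKX2-5 shRNA cells from day 6 to day 10. In ZEB2 shRNA cells 1 member was called at day 0 with DESeq2, with all RefSeq rows summed and with a replicate block, and 1 at day 10 without TMM factors, with DESeq2, without a filter and with a replicate block. With rows summed, 2 were called in ZNF503 shRNA cells at day 2. With 1 library left out, calls ranged at day 0 from 1 to 4 in NKX2-5, from 0 to 1 in ZEB2 and from 0 to 3 in ZNF503 shRNA cells, at day 6 from 1 to 3 in NKX2-5 and from 0 to 4 in ZNF503 shRNA cells, in WT cells from day 6 to day 10 from 1 to 4, and for the NKX2-5 difference in change over those days from 1 to 2. The cause was not tested.

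Results that changed sign had not passed 5% FDR. Without TMM factors the log2 fold change at day 2 in NKX2-5 shRNA cells was -0.08 for SOX17, -0.08 for PROX1 and -0.03 for ONECUT1, and with 1 library left out the ranges were -0.14 to 0.22, -0.01 to 0.11 and -0.08 to 0.28. In 1 fit of all libraries SOX17 in ZEB2 shRNA cells at day 2 was 0.00, with a leave-one-out range of -0.22 to 0.15, and FOXA3 ranged from -0.17 to 0.07. HHEX at day 0 ranged from -0.33 to 0.00 in NKX2-5 and from -0.19 to 0.37 in ZEB2 shRNA cells. At day 6 in ZEB2 shRNA cells FOXA1 ranged from -0.17 to 0.62, FOXA2 from -0.01 to 1.36, HNF4A from -0.02 to 1.20, HHEX from -0.34 to 0.06 and ONECUT1 from -0.27 to 0.74. FOXA3 between NKX2-5 and ZNF503 shRNA cells at day 6 ranged from -0.15 to 0.09, and ONECUT1 between NKX2-5 and ZEB2 shRNA cells at day 10 from -0.58 to 0.18. ONECUT1 from day 6 to day 10 in WT cells was -0.02 without a filter and ranged from -0.28 to 0.73, and from day 2 to day 6 in ZNF503 shRNA cells it was 0.05 with RLE factors, 0.05 with DESeq2 and 0.02 in 1 fit, ranging from -0.14 to 0.13. The HNF4A difference in change from day 2 to day 6 cannot be estimated, since WT cells held no count at day 2, and its values depend on the fit. They were 0.49 in NKX2-5 and 0.50 in ZNF503 shRNA cells with DESeq2, and ranged in NKX2-5 shRNA cells from -1.39 to 3.06. The HHEX difference in change over these days in ZNF503 shRNA cells ranged from -0.23 to 0.36. For SOX17 in NKX2-5 shRNA cells from day 6 to day 10 it was -0.00 with RLE factors, -0.03 without a filter, -0.01 with rows summed and -0.02 in 1 fit, and ranged from -0.77 to 0.62.

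Libraries with the same replicate number did not deviate together: correlations of their deviations ran from -0.129 to 0.118 over 19 pairs of groups, so the numbers were not taken as pairs. With the replicate block, 90 of the 92 results that could be so fitted stayed past 5% FDR, the exceptions being ONECUT1 at day 0 in ZEB2 (-0.70, adjusted p = 0.0798) and ZNF503 shRNA cells (0.68, adjusted p = 0.0617). Scaling without TMM factors moved the median of all genes by over 0.1 in 11 of 32 comparisons, from -0.18 to 0.18.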
